A study of Homo sapiens with 7 samples.

Results

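F-box proteins are the parts of SCF ubiquitin ligases that choose the substrate. The genes described here are all genes of the deposited RNA-seq table whose symbol is FBXL, FBXO or FBXW followed only by a number. This rule uses the name and no measured value. It found 64 of the 26175 genes in the table, 18 in the FBXL subfamily, 37 in FBXO and 9 in FBXW. Of these, 63 are protein-coding in the annotation used here, and FBXL21 is listed there as a pseudogene.

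The labels name the cells T-47D, a human luminal breast cancer line. By the study's methods they are T47D/A1-2, a line derived from it that carries an overexpressed rat glucocorticoid receptor and an integrated luciferase reporter under the MMTV promoter, in every sample. They were grown in 10% serum and held in 5% stripped serum for at least 24 hours before harvest, with no other treatment and no second condition to compare. RNA-seq came from 3 replicates that the authors merged into 1 FPKM value per gene, a read count scaled to transcript length and library size. Start-seq, which sequences the 5’ ends of short capped nuclear RNA, gave positions of transcription start sites (TSSs) from replicate 1. Every value below therefore lacks an error between replicates, and no difference was tested. Intervals are exact and at 95%, and they cover only the number of genes or calls in 1 data set.

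An SCF complex is built on the cullin CUL1, which carries the RING protein RBX1 at one end and the linker SKP1 at the other. The F-box motif of an F-box protein docks on SKP1, and a separate domain holds the substrate. FBXL proteins bind substrates with leucine-rich repeats, FBXW proteins with WD40 repeats, and FBXO proteins with other domains. The best known substrates are regulators of the cell cycle and development.

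The labelled cell type was checked against markers. All 10 luminal epithelial markers lay between 44.1 and 1142 FPKM, while the basal keratins KRT5 and KRT14 were listed at 0 and TP63 at 0.517 FPKM. Of 11 fibroblast, leukocyte and endothelial markers, COL1A1 was highest at 8.82 FPKM. CD3E and CDH5 were listed at 0.

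A gene TSS in the deposited calls could carry an upstream antisense TSS (uaTSS) or a downstream antisense TSS (daTSS), both on the opposite strand. A gene TSS was taken as a gene's own where it lay on its strand within 1000 nts of one of its annotated transcript starts. F-box genes had 54 such gene TSSs, 28 uaTSSs and 14 daTSSs. The sequences around calls at 3 extremes of these distances follow, with the highest F-box gene, an F-box gene with all 3 kinds of call, and a pair of F-box genes that start back to back. Each is 30 bases of hg19 read 5’ to 3’ on the strand of the call, and the capitals mark the bases at -1 and +1, the +1 base being the called TSS.
FBXW5 gene TSS, highest FPKM of the family (chr9:139838641-139838670, minus strand): cacgcagccccgtggaactCCcggcgggac
FBXO5 gene TSS (chr6:153304165-153304194, minus strand): gctggcgccttttaagagaTAcaggtctgt
FBXO5 uaTSS (chr6:153304862-153304891, plus strand): gaggctgtgcggccttcccCAgcggctgta
FBXO5 daTSS (chr6:153303360-153303389, plus strand): gagggagaccctggaactcCTgagggatcg
FBXO33 gene TSS, farthest uaTSS (chr14:39900915-39900944, minus strand): tgaattcgccgccgagaacTAtctgagcgg
FBXO33 uaTSS (chr14:39901854-39901883, plus strand): ggtggccgctgcgcccagtCAcatctgtaa
FBXO21 gene TSS, nearest daTSS (chr12:117628267-117628296, minus strand): cgcgcgcgcgcggcggcccCAggtacgcgg
FBXO21 daTSS (chr12:117628204-117628233, plus strand): cctcctccgccagcgccggCAccacctcca
FBXO9 gene TSS, farthest daTSS (chr6:52930180-52930209, plus strand): acgggcagcaccggcactgCGcatgctcgg
FBXO9 daTSS (chr6:52931174-52931203, minus strand): gcaacttagctcagtctctCAtttggacgg
FBXO2 gene TSS (chr1:11714477-11714506, minus strand): gcggtcgccgggaccgacaCAgacgcggac
FBXO44 gene TSS (chr1:11714960-11714989, plus strand): cggtgcagcttgggcggccCAacggatcgt

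Most F-box genes were expressed, at moderate levels. Their median was 8.22 FPKM (interval 5.596 to 14.5), with quartiles of 3.40 and 16.7 FPKM. Over 18760 protein-coding genes the median was 4.06 FPKM, with quartiles of 0.0283 and 20.9 FPKM. Over all genes of the table the median was 0.528 FPKM. The lower quartile of F-box genes thus lay above that of protein-coding genes, and the upper quartile below it. On the scale of log2(FPKM + 0.1), the median was 3.06 for F-box genes and 2.06 for protein-coding genes. At least 1 FPKM was reached by 52 of 64 F-box genes (81.2%, interval 69.5% to 89.9%), against 60.1% of protein-coding genes and 46.9% of all genes. By level, 12 F-box genes lay under 1 FPKM, 9 from 1 to under 5 FPKM, 16 from 5 to under 10 FPKM, 16 from 10 to under 20 FPKM, and 11 at 20 FPKM or more.

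The median was 6.004 FPKM in FBXL (interval 3.04 to 10.3), 9.58 FPKM in FBXO (5.67 to 16.6) and 16.04 FPKM in FBXW (0.0673 to 42.9). The 3 intervals overlap, and that of FBXW spans most of its own range because it rests on 9 genes. The share at 1 FPKM or more was 14 of 18 in FBXL, 31 of 37 in FBXO and 7 of 9 in FBXW. With no error on single genes, neighbours in the order of levels cannot be told apart.

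**Figure D1:**
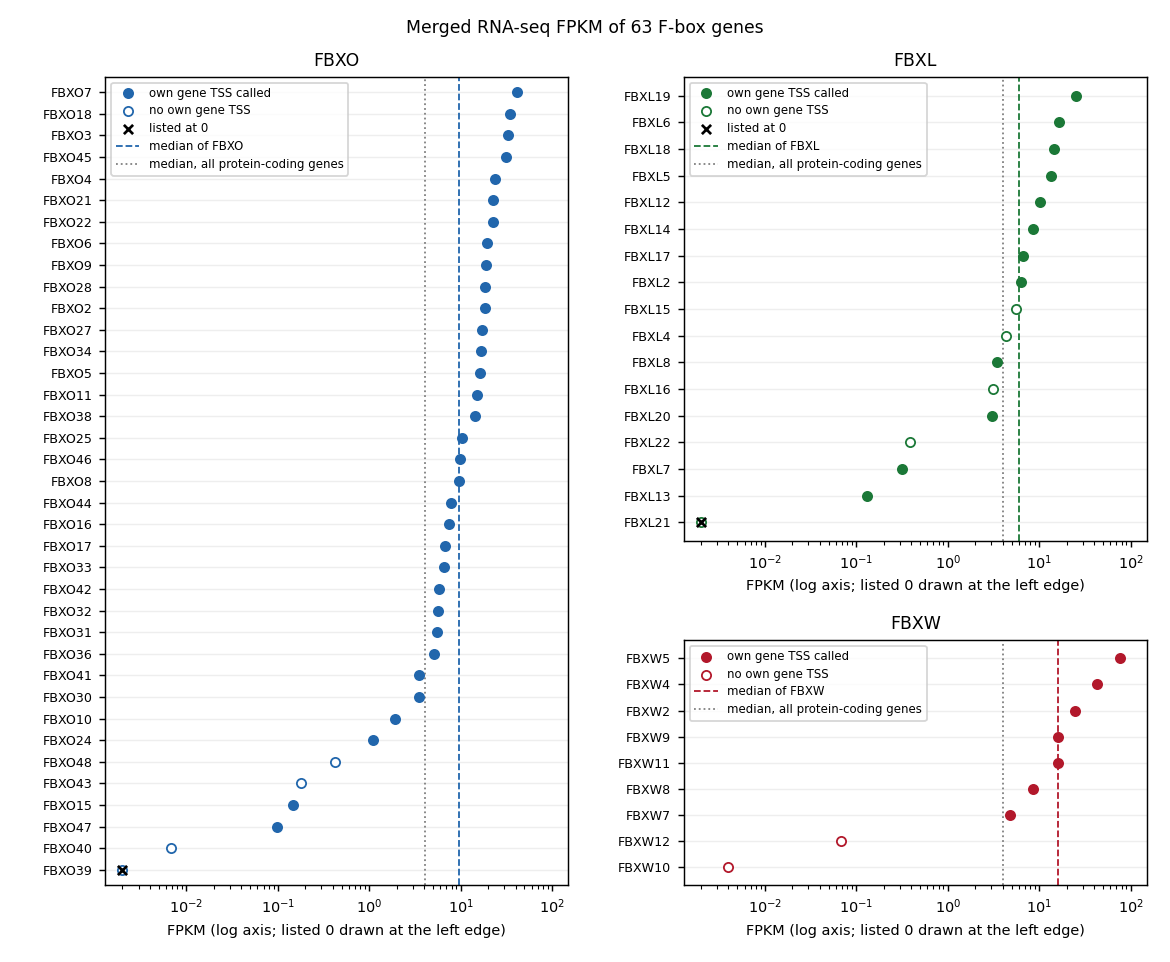
FPKM of 63 F-box genes on a log axis, in 3 panels by subfamily, with filled circles for genes with their own gene TSS, open circles for genes without one and crosses for genes listed at 0. Dashed lines mark the subfamily medians of 6.004, 9.58 and 16.04 FPKM and dotted lines the protein-coding median of 4.06 FPKM. Of the 11 open circles, 8 lie under 1 FPKM, as do most protein-coding genes without their own gene TSS.

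Among FBXW genes, FBXW5, whose product limits centrosome duplication, was the highest of the family at 77.5 FPKM. FBXW4, the gene of dactylin, followed at 42.9 FPKM, FBXW2 was at 24.8 FPKM, FBXW9 at 16.2 FPKM, and FBXW11, which encodes a beta-TrCP protein acting on beta-catenin and I-kappa-B, at 16.04 FPKM. FBXW8, a partner of the cullin CUL7, was at 8.62 FPKM. FBXW7, a tumour suppressor that targets cyclin E, MYC, JUN and NOTCH1, was at 4.83 FPKM, the lowest of the 7 FBXW genes over 1 FPKM. FBXW12 was at 0.0673 FPKM and FBXW10 at 0.00394 FPKM, and neither had a call at its locus.

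The highest FBXO genes were FBXO7 at 41.4 FPKM, FBXO18 at 34.9 FPKM, FBXO3 at 32.6 FPKM, FBXO45 at 31.3 FPKM and FBXO4 at 23.8 FPKM. FBXO7 is a Parkinson disease gene whose product also binds the proteasome regulator PI31. FBXO18, listed as FBH1 in the annotation, encodes a DNA helicase with an F-box, and FBXO45 works with the ligase MYCBP2 in place of a CUL1 complex. At the low end, FBXO40 was at 0.00676 FPKM, FBXO47 at 0.0987 FPKM and FBXO15 at 0.145 FPKM, and FBXO39 was listed at 0.

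In FBXL, FBXL19, which binds unmethylated CpG DNA through a CXXC domain, led with 25.1 FPKM. FBXL6 was at 16.5 FPKM, FBXL18 at 14.5 FPKM, FBXL5, the iron-sensing adaptor of the iron regulatory protein IREB2, at 13.5 FPKM, and FBXL12 at 10.3 FPKM. The lowest above 0 were FBXL13 at 0.131 FPKM, FBXL7 at 0.314 FPKM and FBXL22 at 0.389 FPKM. FBXL21 was listed at 0.

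Genes were also grouped by known role, with groups chosen after the values were seen. All 5 genes of the sugar-binding class, some of whose products recognise N-glycans on misfolded glycoproteins, were at 1 FPKM or more. So were 31 of 37 FBXO genes and 60.1% of protein-coding genes. FBXO6 was at 19.4 FPKM, FBXO2 at 18.6 FPKM, FBXO27 at 17.1 FPKM, FBXO44 at 7.83 FPKM and FBXO17 at 6.68 FPKM. They lie in a pair of clusters. On chromosome 1, the gene TSSs of FBXO2 and FBXO44 were 494 nts apart and that of FBXO6 lay 9277 nts beyond FBXO44, and on chromosome 19 those of FBXO17 and FBXO27 were 56612 nts apart.

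Cell cycle genes, FBXW7 and FBXW11 among them, ranged from 4.83 FPKM for FBXW7 to 23.8 FPKM for FBXO4. FBXO4, an adaptor of cyclin D1, was at 23.8 FPKM, FBXO5, the APC/C inhibitor EMI1, at 16.4 FPKM, and FBXO31, which also targets cyclin D1, at 5.52 FPKM. The 3 genes known from muscle spread widely: FBXO32, the atrophy gene atrogin-1, was at 5.67 FPKM, FBXO30 at 3.52 FPKM and FBXO40 at 0.00676 FPKM. Of 4 genes known from germ cells, FBXO24 was at 1.11 FPKM, FBXO43, the meiotic relative of FBXO5, at 0.178 FPKM, FBXO47 at 0.0987 FPKM and FBXO39 at 0.

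Of the other FBXO genes, FBXO21 and FBXO22 were at 22.6 and 22.5 FPKM, FBXO9 at 19.0 FPKM, FBXO28 at 18.7 FPKM, FBXO34 at 16.6 FPKM, FBXO11, an adaptor of BCL6, at 14.9 FPKM and FBXO38 at 14.6 FPKM. FBXO25, FBXO46, FBXO8, FBXO16, FBXO33, FBXO42 and FBXO36 ranged from 10.4 FPKM for FBXO25 down to 5.12 FPKM for FBXO36. FBXO41, FBXO10 and FBXO48 were lower, at 3.55, 1.90 and 0.421 FPKM. In FBXL, other genes were FBXL14, an adaptor of SNAI1, at 8.62 FPKM, FBXL17 at 6.65 FPKM, FBXL2 at 6.41 FPKM, FBXL8 at 3.48 FPKM and FBXL20 at 3.04 FPKM. The deposited loci of 18 of the 64 genes were shared with another gene, such as FBXO11 with MSH6 and FBXL8 with HSF4. How the authors' estimate divided reads there is unknown, and locus sharing over the whole table was not counted.

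A further 9 genes encode F-box proteins under other symbols, and 8 of them were at 1 FPKM or more, against 60.1% of protein-coding genes. The lysine demethylase KDM2A was at 67.1 FPKM, cyclin F (CCNF) at 43.3 FPKM, SKP2, the adaptor of the CDK inhibitor p27, at 25.7 FPKM, TSPAN17 at 20.9 FPKM, KDM2B at 14.01 FPKM, BTRC, the other beta-TrCP gene, at 12.2 FPKM, LMO7 at 8.47 FPKM and LRRC29 at 2.60 FPKM. ECT2L was at 0.00601 FPKM. Both beta-TrCP genes were thus above the F-box median, FBXW11 at 16.04 FPKM and BTRC at 12.2 FPKM.

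The shared machinery stood above most of its adaptors. Of 36 genes of the SCF core and its regulators, 35 were at 1 FPKM or more, against 60.1% of protein-coding genes. Their median was 32.8 FPKM, and 31 lay above the F-box median of 8.22 FPKM. Percentile 59 of protein-coding genes was 8.16 FPKM. The scaffold CUL1 was at 24.2 FPKM, RBX1 at 50.3 FPKM and SKP1 at 94.1 FPKM. NEDD8, the ubiquitin-like protein that activates cullins, was at 150 FPKM, and the COP9 signalosome genes COPS5, COPS6 and GPS1, whose products remove it, were at 135, 102 and 92.3 FPKM. CKS2, whose part in SCF complexes was not examined here, was at 215 FPKM. It, SKP1, NEDD8, COPS5, COPS6 and GPS1 were the 6 listed genes above every F-box gene. CAND1, which exchanges F-box modules on CUL1, was at 46.8 FPKM, while CAND2 was lowest at 0.526 FPKM.

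**Figure D2:**
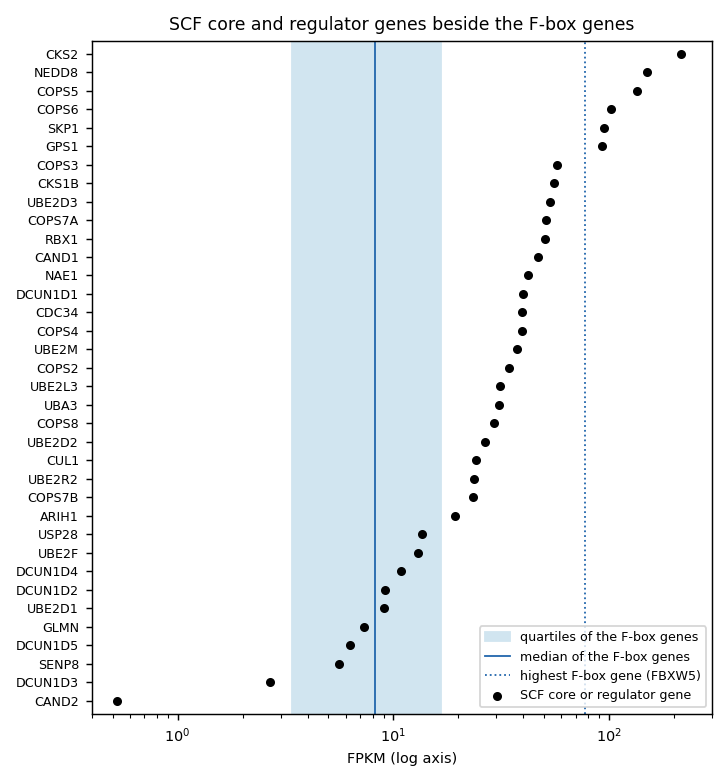
FPKM of 36 genes of the SCF core and its regulators on a log axis, 1 point per gene. The shaded band spans the F-box quartiles of 3.40 and 16.7 FPKM, the solid line marks their median of 8.22 FPKM and the dotted line the highest F-box gene at 77.5 FPKM, which 6 genes exceed.

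Of 25 known SCF substrates, 24 were at 1 FPKM or more, against 60.1% of protein-coding genes, and their median was 14.7 FPKM. ATF4 and beta-catenin (CTNNB1), both substrates of beta-TrCP, were at 133 and 115 FPKM. The FBXW7 substrates CCNE1, MYC, JUN and NOTCH1 were at 8.45, 8.58, 6.85 and 4.73 FPKM, beside 4.83 FPKM for FBXW7. IREB2 was at 22.7 FPKM beside 13.5 FPKM for FBXL5, BCL6 at 22.5 FPKM beside 14.9 FPKM for FBXO11, and SNAI1 at 0.528 FPKM beside 8.62 FPKM for FBXL14. RNA levels do not measure the proteins that these ligases degrade.

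Adaptor families of other cullins were set beside the F-box genes. The 37 KLHL genes, numbered adaptors of CUL3, had a median of 3.53 FPKM (interval 0.213 to 5.35). Of these, 22 were at 1 FPKM or more, a level reached by 60.1% of protein-coding genes. The 12 numbered DCAF genes, adaptors of CUL4, had a median of 18.7 FPKM (10.1 to 51.7), and all 12 were at 1 FPKM or more. The F-box median of 8.22 FPKM (5.596 to 14.5) lay between them. Its interval overlapped that of DCAF and began just above the end of that of KLHL. No difference between families was tested. The highest gene of each family was FBXW5 at 77.5 FPKM, DCAF13 at 63.2 FPKM and KLHL12 at 41.0 FPKM.

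**Figure D3:**
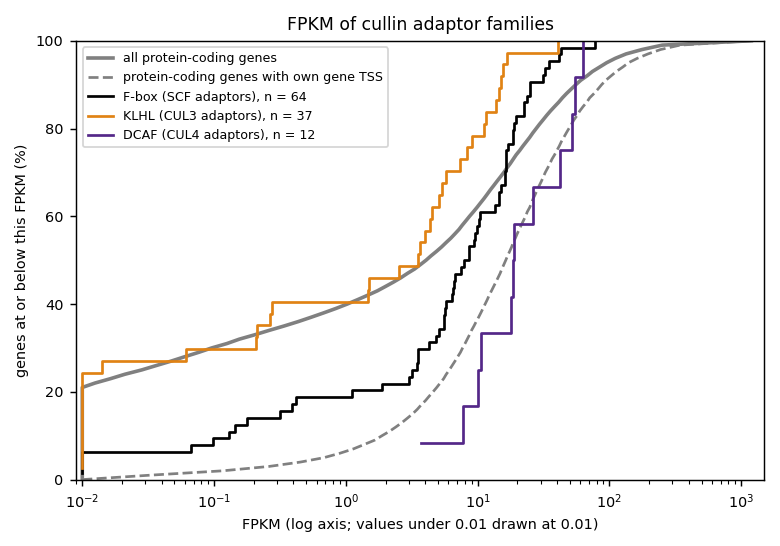
Cumulative share of genes in percent against FPKM on a log axis, for F-box, KLHL and DCAF genes as steps and for all protein-coding genes, with and without the need for an own gene TSS, as smooth lines. F-box genes have a median of 8.22 FPKM, KLHL genes of 3.53 FPKM and DCAF genes of 18.7 FPKM. The F-box line, of all 64 genes, stays left of that of protein-coding genes with a gene TSS, whose median is 16.4 FPKM. The 53 F-box genes with their own gene TSS have a median of 10.3 FPKM.

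Start-seq placed a gene TSS at most expressed F-box genes. An own gene TSS was called for 53 of 64 (82.8%, interval 71.3% to 91.1%), against 52.4% of protein-coding genes. Within genes at 1 FPKM or more it was 49 of 52 F-box genes (94.2%, 84.1% to 98.8%), against 81.5% of protein-coding genes. Under 1 FPKM it was 4 of 12 (33.3%, 9.92% to 65.1%), against 8.45%. By subfamily, 13 of 18 FBXL, 33 of 37 FBXO and 7 of 9 FBXW genes had one.

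F-box genes with their own gene TSS had a median of 10.3 FPKM, and protein-coding genes with one had 16.4 FPKM. The 11 F-box genes without one had a median of 0.178 FPKM, and 8 of them were under 1 FPKM. Most protein-coding genes without one were under 1 FPKM too. Of 18760 protein-coding genes, 9824 had their own gene TSS, and of the 7479 under 1 FPKM, 632 did. The 3 F-box genes without one that were over 1 FPKM were all FBXL genes. FBXL15, an adaptor of the BMP regulator SMURF1, was at 5.596 FPKM and had only a call of the neighbouring gene PSD, on the other strand, at its locus. FBXL4, a mitochondrial disease gene, was at 4.31 FPKM and FBXL16 at 3.15 FPKM, and no call was listed at either locus. In the other direction, FBXL7, FBXO15, FBXL13 and FBXO47 each had a gene TSS at 0.314, 0.145, 0.131 and 0.0987 FPKM. FBXO15 is a gene of embryonic stem cells, and FBXO47 acts in meiosis.

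The calls lay close to annotated starts. The median offset was 12.5 nts, 12 of the 54 fell on the annotated base, and 43 lay within 50 nts. Offsets over all gene TSSs were not computed, so whether this closeness is particular to F-box genes is unknown. The farthest was the call given to FBXO8, 662 nts upstream of its nearest annotated start, with the gene TSS of CEP44 on the other strand 325 nts downstream of the call. Whether this call belongs to FBXO8 was not tested. FBXO31 was the only F-box gene with more than 1 gene TSS. Its calls on the minus strand of chromosome 16 were at 87417382, with both antisense calls, and 8309 nts upstream at 87425691, with neither.

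Antisense calls at F-box genes were about as common as at gene TSSs as a whole. A uaTSS was called at 28 of 54 F-box gene TSSs (51.9%, interval 37.8% to 65.7%), against 53.1% of all 10391 gene TSSs. A daTSS was called at 14 (25.9%, 15.0% to 39.7%), against 28.4%. Both were called at 10 (18.5%, 9.25% to 31.4%), against 17.5%. A further 18 had only a uaTSS, 4 only a daTSS, and 22 neither. Where a uaTSS was called, 10 of 28 F-box gene TSSs also had a daTSS (35.7%, 18.6% to 55.9%), against 32.9% of all gene TSSs with a uaTSS. Where none was called, 4 of 26 did (15.4%, 4.36% to 34.9%), against 23.4%.

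By subfamily, these counts rest on few genes. A uaTSS was called at 6 of 7 FBXW gene TSSs (85.7%, 42.1% to 99.6%), 8 of 13 in FBXL (61.5%, 31.6% to 86.1%) and 14 of 34 in FBXO (41.2%, 24.6% to 59.3%). The intervals overlap. A daTSS was called at 3 of 7, 3 of 13 and 8 of 34. FBXW8 was the FBXW gene without a uaTSS.

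Among the gene TSSs with both antisense calls were those of FBXL18, FBXO5, FBXO9, FBXO17, FBXO22, FBXO31, FBXO34, FBXW4 and FBXW11. Distances within them varied widely. At FBXO17 the uaTSS lay 159 nts upstream and the daTSS 203 nts downstream, and at FBXW11 116 and 209 nts. FBXL18 had the daTSS 337 nts downstream and the uaTSS 73 nts upstream. For FBXO22 the distances were 106 and 514 nts, for FBXO34 278 and 609 nts, for FBXO31 89 and 258 nts, and for FBXW4 99 and 718 nts. FBXO9 and FBXO5 spread farthest, with the daTSS 983 and 794 nts downstream and the uaTSS 249 and 708 nts upstream. The gene TSS of FBXO5 sat in DNA of 51% GC over 100 nts, and that of FBXW4 in 83%.

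**Figure D4:**
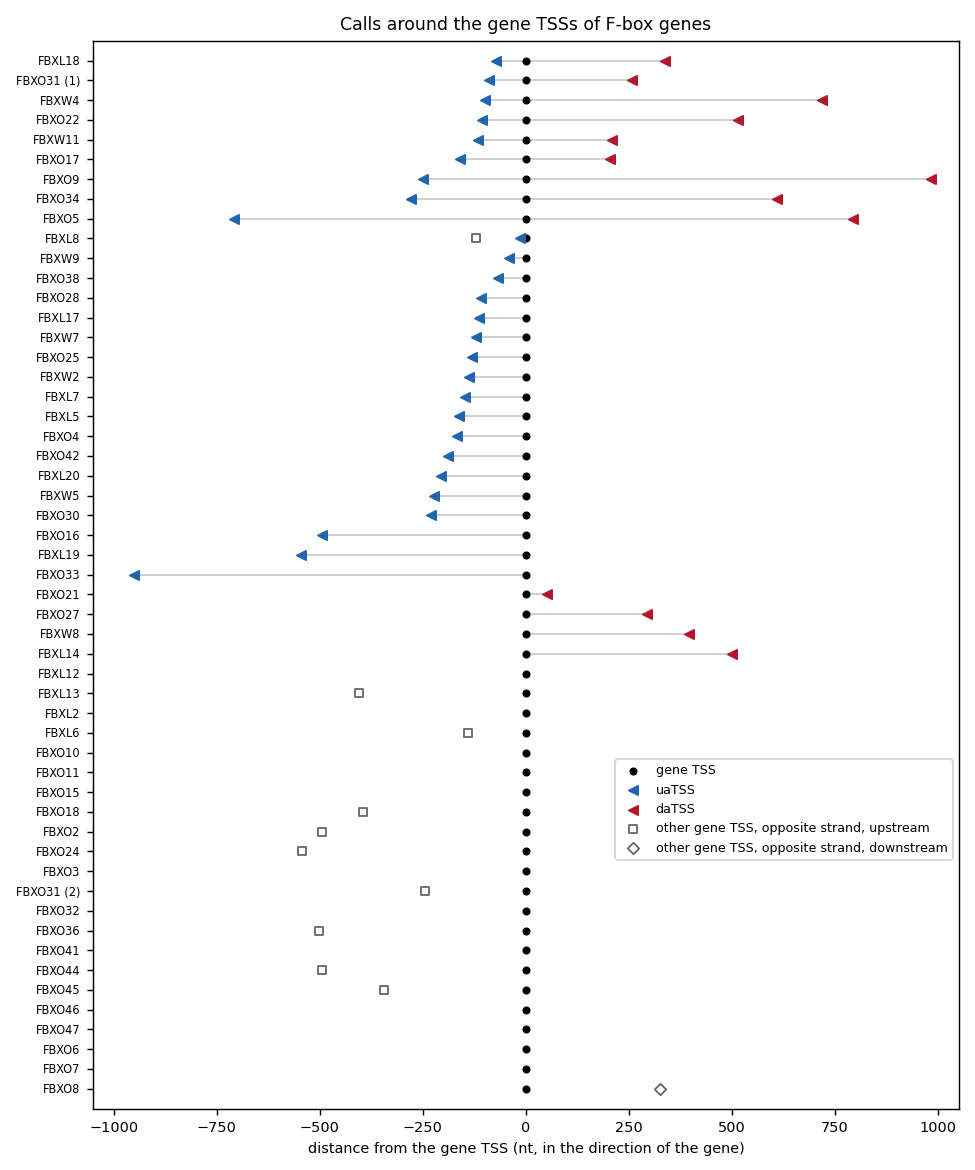
Position of each antisense call in nts relative to the gene TSS at 0, 1 row for each of 53 F-box gene TSSs and read in the direction of the gene, ordered by antisense class, with FBXO31 (1) and (2) for its calls at 87417382 and 87425691. Triangles mark uaTSSs on the left and daTSSs on the right, open squares and the diamond mark gene TSSs of other genes on the opposite strand, and of the 10 rows with a square only FBXL8 also has a uaTSS.

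Over all 28, the uaTSS lay a median of 142.5 nts upstream (interval 113 to 205), against 200 nts over all 5519 uaTSSs. The distances ran from 14 nts at FBXL8 to 950 nts at FBXO33, with 6 up to 100 nts, 18 from over 100 to 300 nts, and 4 beyond 400 nts, at FBXO16, FBXL19, FBXO5 and FBXO33. An annotated transcript started on the antisense strand within 100 nts of 9 of the 28 uaTSSs (32.1%, 15.9% to 52.4%), against 20.5% of all 5519. EPM2A-DT started at the base called at FBXO30, and FBXO38-DT 10 nts from that of FBXO38. SZRD1, B3GALT9 and MAP1LC3B started 85, 26 and 88 nts from the uaTSSs of FBXO42, FBXW2 and FBXO31.

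The daTSS lay a median of 366.5 nts downstream (209 to 718), against 507 nts over all 2956 daTSSs. All 14 lay within 1000 nts, as did 84.8% of all daTSSs. The shortest distance was 52 nts at FBXO21 and the longest 983 nts at FBXO9. In the nearest annotated transcript, 8 of 14 daTSSs fell in intron 1 (57.1%, 28.9% to 82.3%) and 6 in exon 1, against 65.6% and 18.7% of the 2950 daTSSs with an annotated transcript start near their gene TSS. Those in exon 1 included FBXL14 and FBXW11 in the untranslated part and FBXO21, FBXO31 and FBXW4 in the coding part. At 4 of the 14 (28.6%, 8.39% to 58.1%), FBXO34, FBXW4 and FBXO17 among them, an annotated antisense transcript started within 100 nts, against 4.97% of all daTSSs. The authors had removed daTSSs close to an antisense start in another annotation. FBXO34-AS1 started 14 nts from the daTSS of FBXO34. The genes with a daTSS and no uaTSS were FBXO21, FBXO27, FBXW8 and FBXL14, at 52, 293, 396 and 500 nts.

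Levels were set beside the antisense class. Gene TSSs with both calls had a median of 16.2 FPKM, beside 21.1 FPKM for all gene TSSs of that class. With only a uaTSS it was 8.96 FPKM beside 18.6 FPKM, with only a daTSS 12.8 FPKM beside 13.01 FPKM, and with neither 8.70 FPKM beside 13.8 FPKM. F-box medians were below the medians of all gene TSSs in each class. Where the F-box median had an interval, that interval held the median of all gene TSSs. With only a daTSS, on 4 gene TSSs, no interval was computed. The interval of the F-box median was 6.68 to 22.5 FPKM with both calls, 4.83 to 18.7 FPKM with only a uaTSS and 3.55 to 18.6 FPKM with neither, so that these overlap. The highest gene, FBXW5, had a uaTSS 223 nts upstream and no daTSS, the next, FBXW4, had both, and FBXO7, FBXO18, FBXO3 and FBXO45 had neither. Of the 22 F-box gene TSSs with neither, 9 had another gene TSS within 1000 nts upstream on the opposite strand. FBXO18 and FBXO45 were among these 9.

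**Figure D5:**
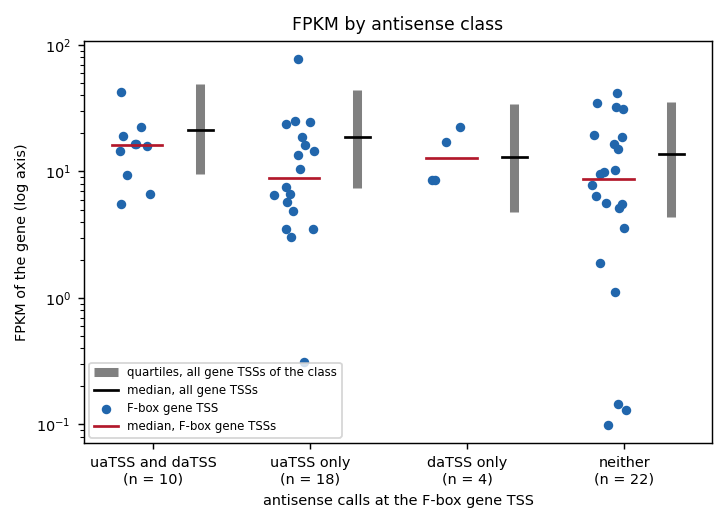
FPKM on a log axis of the gene at each F-box gene TSS, as points grouped by antisense class, with red lines at the F-box medians and grey bars and black lines at the quartiles and medians of all gene TSSs of the class. The F-box medians are 16.2, 8.96, 12.8 and 8.70 FPKM, each below that of all gene TSSs. Intervals of the F-box medians, where computed, hold the median of all gene TSSs, and the points of the 4 classes overlap.

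Back-to-back gene pairs were described apart, since the second gene starts where a uaTSS would lie. An upstream gene TSS of a second gene, on the opposite strand and at most 1000 nts away, was called at 10 of 54 F-box gene TSSs (18.5%, 9.25% to 31.4%), against 11.5% of all gene TSSs. In order of distance, these were FBXL8 with TRADD at 122 nts, FBXL6 with SLC52A2 at 141 nts, the upstream FBXO31 call with MAP1LC3B at 245 nts and FBXO45 with WDR53 at 345 nts. FBXO18 followed with ANKRD16 at 396 nts, FBXL13 with ARMC10 at 406 nts, FBXO36 with TRIP12 at 502 nts and FBXO24 with LRCH4 at 544 nts. FBXO2 and FBXO44, 494 nts apart, run away from each other and count once each. A uaTSS was called at 1 of these 10 and at 27 of the 44 others (61.4%, 45.5% to 75.6%). Over all gene TSSs the shares were 16.2% of 1198 and 57.9% of 9193.

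In sequence, F-box gene TSSs were GC-rich, with a median of 72% GC in the 100 nts around the call (interval 69% to 75%), against 68% over all gene TSSs. The range was 41% at the call given to FBXO8, whose link to that gene was not tested, to 83% at FBXL5 and FBXW4. The median ratio of observed to expected CpG in the 500 nts around the call was 0.860, against 0.832. A pyrimidine at -1 and a purine at +1, the usual initiator step, stood at 36 of 54 (66.7%, 52.5% to 78.9%), against 66.1%. The bases C and A made up 20 of these, as in FBXO2, FBXO44 and FBXO21 above. TATAA or TATAT beginning 35 to 24 nts upstream on the strand of the gene was found at FBXL6 only, 1 of 54, against 3.003%.

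Short promoter motifs were searched on both strands of the 100 nts upstream of each gene TSS, and none of these motifs contains another. The GC box GGGCGG was found at 31 of 54 (57.4%, 43.2% to 70.8%), against 50.2% of all gene TSSs. The ETS core, searched as CCGGAAG, was found at 12 (22.2%, 12.04% to 35.6%), against 11.3%. These were FBXL6, FBXL12, FBXL18, FBXO22, FBXO25, FBXO28, FBXO32, FBXO41, FBXO46, FBXW2, FBXW8 and FBXW9, which ranged from 3.55 FPKM for FBXO41 to 24.8 FPKM for FBXW2. The CCAAT box was found at 7 (12.96%), against 18.7%, and the NRF1 core, searched as CGCATGCG, at FBXL5, FBXO15 and FBXO42 (5.56%), against 1.99%. The E-box CACGTG was found at 2 of 54 (3.70%), against 4.47%, the YY1 core AAGATGG at 1 (1.85%), against 1.82%, and the CRE, searched as TGACGTCA, at 0, against 1.80%. A match describes the letters in this window and not binding of a factor.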

How the data were processed

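The samples are 3 RNA-seq, 2 Start-seq and other libraries, 7 in all, labelled T-47D and described in the study's methods as its engineered derivative T47D/A1-2. The deposited FPKM values are 1 per gene, made by the authors with Cufflinks after merging replicates. The deposited TSS calls are single positions in hg19 from Start-seq replicate 1, whose score is 0 throughout per the file values, so the authors' read counts are not in them. By the study's methods, a call needed at least 5 reads at 1 position of a window searched around a RefSeq start or beside a gene TSS. Depth is unknown for both. The FPKM table had 0 per-sample columns without a match. Replicate 2 and the other assays were not used here. The submitters' processing notes name Bowtie 0.12.8, TopHat2 2.0.4, Cufflinks 2.2.1, cutadapt 1.2.1 and Picard 1.118.

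All 64 symbols were matched to GENCODE 44 lifted to GRCh37, 62 directly and FBXL21 and FBXO18 as FBXL21P and FBH1. Sequence came from the GRCh37 chromosomes, the sequences of hg19. Computations used Python 3.11.15, pandas 2.3.3, numpy 2.4.6, scipy 1.17.1 and pysam 0.24.0, and figures matplotlib 3.10.9. Shares have exact Clopper-Pearson intervals and medians exact order-statistic intervals, both at 95%. The order-statistic intervals and the join were tested on simulated data, and the Clopper-Pearson intervals were not. Most shares are set beside the same share over all genes or gene TSSs, without a test.

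The members and gene lists were chosen with earlier results of these data known. Values are printed for the 5 highest and 3 lowest genes above 0 of each subfamily, genes at 0, genes over 5 FPKM without a gene TSS, genes under 1 FPKM with one, and the extremes and classes of antisense calls. Other members are added, and 1 F-box gene, which is counted throughout, is not reported here by name. Alternatives were minimum FPKM, pseudocount, gene set, window, choice of gene TSS, and GC window.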

Additional observations from a re-analysis of the deposited data

How the results depend on the processing

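Of 28 alternatives, 25 left the value inside its 95% interval, and 3 took it outside. Some had little or no room to move it. All 14 daTSSs lay within 1000 nts, so that limit could change neither daTSS value. Taking 1 gene TSS per gene kept 53 of the 54. With a threshold of 5 FPKM in place of 1 FPKM, 67.2% of F-box genes passed. Among genes at 1 FPKM or more, 94.2% had their own gene TSS, against 82.8% of all 64. In a window of 500 nts, median GC content was 68.8%, against 72% in 100 nts. Added after seeing the data were 5 alternatives: leaving out genes that share a locus, leaving out the call of FBXO8, and keeping only gene TSSs within 50 nts of an annotated start for 3 medians. No paired analysis was possible because replicates were merged into 1 value per gene and TSS calls come from 1 library, and leaving out each replicate could not be done for the same reason. The reads behind each call are not given, and whether FBXL4, FBXL15 and FBXL16, without a call, had reads below the calling threshold was not tested.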
